A study of Homo sapiens with 17 samples.

Results

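ARID1A and PBRM1 regions mapped without hormone in Nthy-ORI cells were compared. Nthy-ORI is a human cell line, immortalised from the epithelium of a normal thyroid. The members were all 48976 ARID1A regions and all 9115 PBRM1 regions of the vehicle samples on chromosomes 1 to 22 and X, which is 58091 of the 266724 regions in the 8 lists of the series. They were placed in classes by whether a region overlapped a region of the other list by at least 1 bp. Regions called ARID1A only numbered 42114, and regions called PBRM1 only numbered 3445. The class called both held 6862 ARID1A regions and the 5670 PBRM1 regions that met them.

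All cells were starved of hormone for 24 h in phenol-red free medium with charcoal-stripped serum. The vehicle groups then received NaOH, and the sample labels give 6 h, although the protocol text also names 24 h. The T3 groups, used here only for reference, received 10 nM triiodothyronine (T3), the active thyroid hormone. Nuclei of 500000 cells per reaction went through CUT&RUN, in which an antibody directs a nuclease to the chromatin around its target. Each protein and treatment had 2 libraries, summarised by the authors in 1 list of regions called reproducibly in both, so values of the 2 libraries of a region are given as first and second in the deposited order.

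SWI/SNF complexes are ATP-driven machines that slide or evict nucleosomes. ARID1A is the large DNA-binding subunit of the canonical BAF complex. PBRM1 (polybromo-1), with its array of bromodomains that read acetylated histones, belongs to the PBAF complex, which carries ARID2 in place of ARID1A. The 2 proteins are therefore used as marks of distinct assemblies that share the ATPase BRG1 (SMARCA4). BAF is best known at distal enhancers and PBAF at promoters. Thyroid hormone receptor beta (TRβ), which was mapped in the same series, is a nuclear receptor that recruits coregulators and remodelers.

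The promoters of the highest-ranked regions of each class that hold an annotated start are shown first, because they place the classes at named genes. Each is a RefSeq window on GRCh38.p14, 250 bases before to 50 after a transcription start, written 5′ to 3′ on the strand of the gene. Capitals mark matches, on either strand, to TGANTCA (AP-1), CCGGAAG (ETS factors), CCAAT (NFY), GGGCGG (SP and KLF factors), CACGTG (E box), TGACGTCA (CRE), TATAAA (the TATA box) and AGGTCA (nuclear receptor core element). The CXXC5 window (chr5:139659305-139659604, plus strand) and the ADGRG1 window (chr16:57628380-57628679, plus strand) lay in regions of both proteins. CXXC5 encodes a CpG-binding zinc finger protein and ADGRG1 an adhesion G protein-coupled receptor.
CXXC5: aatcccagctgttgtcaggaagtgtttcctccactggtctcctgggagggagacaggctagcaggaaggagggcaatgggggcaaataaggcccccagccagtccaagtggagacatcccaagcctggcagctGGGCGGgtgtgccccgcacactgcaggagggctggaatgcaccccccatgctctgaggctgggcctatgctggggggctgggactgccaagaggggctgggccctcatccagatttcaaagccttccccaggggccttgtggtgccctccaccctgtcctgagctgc
ADGRG1: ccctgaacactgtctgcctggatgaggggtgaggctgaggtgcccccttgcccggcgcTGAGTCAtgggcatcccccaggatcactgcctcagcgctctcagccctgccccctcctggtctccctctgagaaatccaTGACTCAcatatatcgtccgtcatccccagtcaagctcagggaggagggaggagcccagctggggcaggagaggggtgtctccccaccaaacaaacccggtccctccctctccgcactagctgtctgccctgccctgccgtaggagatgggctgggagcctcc
The SH2B3 window (chr12:111434612-111434911, plus strand) and the SEPTIN9 window (chr17:77287685-77287984, plus strand) lay at starts within ARID1A-only regions. SH2B3 encodes an adaptor that restrains cytokine signalling and SEPTIN9 a GTP-binding cytoskeletal protein.
SH2B3: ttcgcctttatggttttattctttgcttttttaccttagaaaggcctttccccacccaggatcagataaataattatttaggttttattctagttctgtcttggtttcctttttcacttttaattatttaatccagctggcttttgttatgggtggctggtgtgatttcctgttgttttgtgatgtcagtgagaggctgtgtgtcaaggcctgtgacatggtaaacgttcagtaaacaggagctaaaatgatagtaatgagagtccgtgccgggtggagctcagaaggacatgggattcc
SEPTIN9: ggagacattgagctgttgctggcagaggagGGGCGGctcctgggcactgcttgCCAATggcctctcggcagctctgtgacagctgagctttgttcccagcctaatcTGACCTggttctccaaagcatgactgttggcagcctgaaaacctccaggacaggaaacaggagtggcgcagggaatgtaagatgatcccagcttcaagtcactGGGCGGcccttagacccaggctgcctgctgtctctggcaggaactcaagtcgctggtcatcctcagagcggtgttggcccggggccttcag
The GAS6 window (chr13:113864027-113864326, minus strand) and the AUTS2 window (chr7:69598225-69598524, plus strand) lay at starts within PBRM1-only regions. GAS6 encodes a ligand of the AXL receptor kinase, and AUTS2 a nuclear protein of neural development.
GAS6: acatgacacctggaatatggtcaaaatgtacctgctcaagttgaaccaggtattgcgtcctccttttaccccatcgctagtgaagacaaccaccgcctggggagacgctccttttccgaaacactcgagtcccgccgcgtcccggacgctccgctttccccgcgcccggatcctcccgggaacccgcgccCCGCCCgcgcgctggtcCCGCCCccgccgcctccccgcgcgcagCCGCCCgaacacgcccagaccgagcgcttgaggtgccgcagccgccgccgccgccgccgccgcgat
AUTS2: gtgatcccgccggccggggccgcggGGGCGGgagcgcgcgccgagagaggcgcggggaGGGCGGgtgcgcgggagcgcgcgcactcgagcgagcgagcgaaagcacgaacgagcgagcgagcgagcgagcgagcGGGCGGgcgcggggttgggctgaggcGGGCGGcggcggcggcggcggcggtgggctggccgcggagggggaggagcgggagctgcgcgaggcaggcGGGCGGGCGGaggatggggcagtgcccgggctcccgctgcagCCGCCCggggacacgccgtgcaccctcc
The 2 PBRM1-only windows were the richest in G and C, with 69.0% at GAS6 and 82.3% at AUTS2, and held 42 and 55 CpG dinucleotides. The other 4 held between 2 (CXXC5) and 8 (ADGRG1). ADGRG1 had 2 AP-1 matches, SH2B3 had 0 matches to any of the 8 motifs, and AUTS2 had 7 GGGCGG matches, counting overlapping ones. These 6 windows are examples chosen by rank, and the shares over all promoters are given further on.

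Most ARID1A regions had no PBRM1 region, whereas most PBRM1 regions had an ARID1A region. ARID1A-only regions were 86.0% of the ARID1A list (exact 95% interval 85.7 to 86.3). PBRM1-only regions were 37.8% of the PBRM1 list (36.8 to 38.8). Such intervals cover counting error across regions only. The signal value is the authors' own height of a region, summed over the 2 libraries, and is used here only to rank regions within a list. Its lowest listed value was 6.92 for ARID1A and 9.66 for PBRM1. With ARID1A cut to its 9115 highest signal values, 70.3% (69.4 to 71.2) of ARID1A regions had no PBRM1 region. Of PBRM1 regions, 70.6% (69.6 to 71.5) then had no ARID1A region. The cut left 2707 ARID1A and 2682 PBRM1 regions of both, so nearly equal shares follow from the equal list lengths. The last region inside the cut had a signal value of 13.5416 and the first outside it 13.5398. A region missing from a list is therefore described as not listed, not as free of the protein.

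Only the TRβ lists were shorter than the PBRM1 vehicle list, and the lengths of the 8 lists ran from 1405 (TRβ, vehicle) to 64289 regions (BRG1, vehicle). The PBRM1 list with T3 held 38132 regions. The values of the 2 libraries ranked PBRM1 regions alike (Spearman's rho 0.898 across 9115 regions, as a description) and ARID1A regions poorly (0.158 across 48976). Within the ARID1A list, rho was 0.342 for regions of both and 0.0927 for ARID1A-only regions. Of the 9115 ARID1A regions with the highest value in 1 library, 44.2% were also among the 9115 highest in the other. Cutting the list by the first or the second library alone gave ARID1A-only shares of 73.6% and 72.0%, and PBRM1-only shares of 74.0% and 72.4%. Nothing states that libraries came from separate cultures, so their spread may be technical. Read depth is not known, and an IgG library was not analysed here.

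In both lists, regions of higher rank met the other list more often. In the decile of ARID1A regions with the highest signal values 35.0% overlapped PBRM1, and in the lowest decile 6.74% did. In the highest decile of PBRM1 regions 88.8% overlapped ARID1A, and in the lowest 36.1% did. By width the shares ran from 8.30% in the narrowest quintile of ARID1A regions to 27.6% in the widest, and from 40.5% to 88.0% for PBRM1. Chromosome 19 had the lowest share of ARID1A regions with PBRM1, 8.47% of 3047 regions, and chromosome 5 the highest, 18.3% of 2198. On chromosome 19 there were 10.02 ARID1A regions for each PBRM1 region, and on chromosome 5 there were 4.09. The share of PBRM1 regions with ARID1A ran from 55.3% on chromosomes 4 and 8 to 73.2% on chromosome 20.

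**Figure D1:**
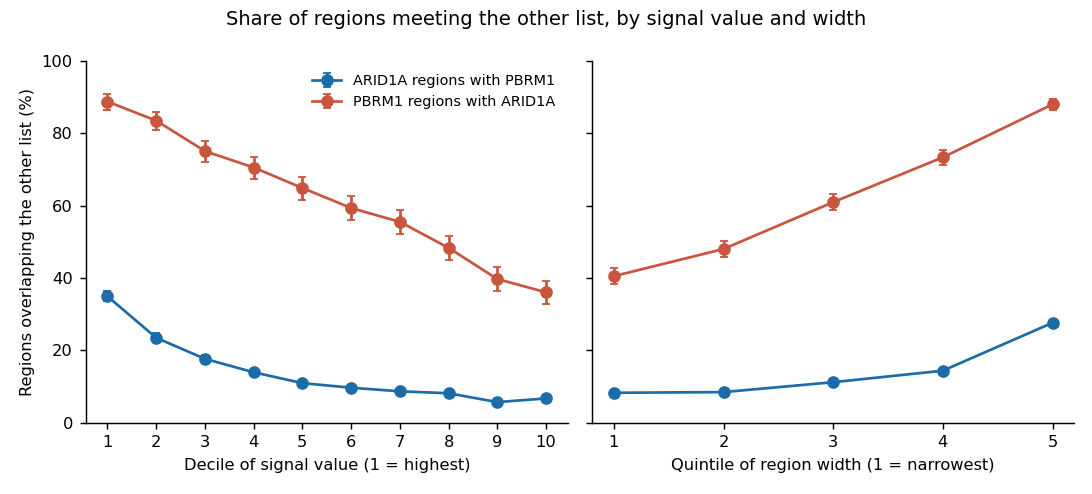
Share of ARID1A regions overlapping PBRM1 and of PBRM1 regions overlapping ARID1A (%), by decile of signal value (left, 1 is the highest) and quintile of width (right, 1 is the narrowest); points are shares and bars exact 95% intervals. ARID1A shares fall from 35.0% in the first to 6.74% in the last decile, and PBRM1 shares from 88.8% to 36.1%.

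PBRM1 regions were wider than the ARID1A regions they met. Among the 6998 overlapping pairs the median shared stretch was 715 bp, which was 99.2% of the ARID1A region and 48.2% of the PBRM1 region. The ARID1A region lay wholly inside the PBRM1 region in 48.1% of pairs and the reverse held in 7.57%. The midpoints were a median of 327 bp apart, and 2.47% of pairs shared under 100 bp. An ARID1A region of both met 1 PBRM1 region in 98.1% of cases. A PBRM1 region of both met 1 ARID1A region in 80.2%, 2 in 16.98% and 3 or more, up to 6, in 2.80%.

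Within each list, regions of both were wider than regions of that protein alone. With full lists, ARID1A regions of both were narrower than PBRM1-only regions. The median width was 645 bp for ARID1A-only regions and 880 bp for ARID1A regions of both, a ratio of 1.36. It was 996 bp for PBRM1-only regions and 1466 bp for PBRM1 regions of both, a ratio of 1.47. Width helps decide whether 2 regions meet, so these values have no test. The order was the same in the intervals of the first library (556, 791, 931 and 1413 bp for ARID1A only, ARID1A of both, PBRM1 only and PBRM1 of both) and of the second (532, 752, 858 and 1265 bp). Regions over 2 kb made up 25.7% of PBRM1 regions of both, 5.63% of PBRM1-only regions, 7.27% of ARID1A regions of both and 1.54% of ARID1A-only regions. When only the 9115 strongest ARID1A regions were kept, ARID1A-only regions had a median of 1216 bp, above the 1133 bp of the PBRM1-only regions. The order of the 2 single classes thus turned with list length. ARID1A regions of both then had a median of 1403 bp, also above that of PBRM1-only regions. ARID1A-only regions covered 30.7 Mb in all, ARID1A regions of both 7.12 Mb, PBRM1 regions of both 9.31 Mb and PBRM1-only regions 3.79 Mb.

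**Figure D2:**
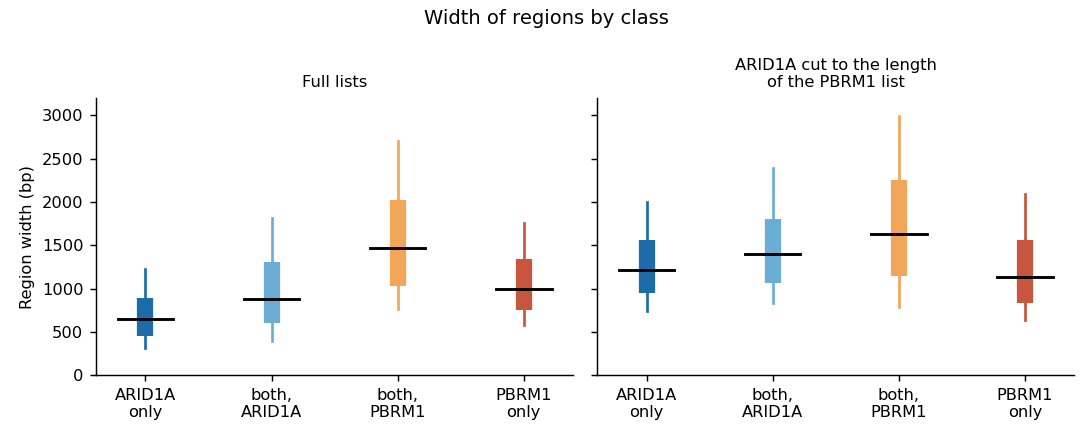
Width of regions (bp) in the 4 sets, with full lists (left) and with ARID1A cut to the PBRM1 list length (right); black lines are medians, thick bars span the middle 50% and thin lines the 10th to 90th percentile. PBRM1 regions of both are the widest in both panels (medians 1466 and 1634 bp).

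Gene ends, meaning an annotated start or end of a protein-coding or long noncoding gene within 1 kb of the midpoint, lay at a larger share of regions of both than of regions of either protein alone. Regions of both lay there in 50.6% (3475 of 6862 ARID1A regions; interval 49.5 to 51.8) and 52.5% (2979 of 5670 PBRM1 regions). ARID1A-only regions lay there in 22.4% (9452 of 42114) and PBRM1-only regions in 27.5% (948 of 3445). Both exceeded ARID1A only by 1.83 in log2 odds (SE 0.04) and PBRM1 only by 1.54 (SE 0.07). In Fisher's exact test, two-sided and run over regions, the adjusted p was 3e-300, the smallest that is written, and 9.29e-124. Regions are not replicates and neighbours depend on each other, so such a p says something of these lists alone. The log2 odds ratios were 1.48 and 1.27 within deciles of signal value and 0.97 and 0.76 with the ARID1A list cut. The second was 0.35 with the cut and within quintiles of width together.

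With full lists, the 2 single classes differed far less from each other. PBRM1-only regions exceeded ARID1A-only regions at gene ends by 0.39 in log2 odds (SE 0.06; adjusted p = 2.40e-11, same exact test). Within quintiles of width the value was -0.03 (SE 0.06; p = 0.597, Mantel-Haenszel), and with the ARID1A list cut it was 0.15 (36.8% and 39.3%; adjusted p = 0.00363, same exact test). At an irreproducible discovery rate (IDR) of at most 0.01 the difference was 0.94 (32.2% and 47.7%). There it exceeded the 0.54 of both over PBRM1 only. It was 0.87 with 50% reciprocal overlap and 0.67 for transcription starts, and 14 of 15 alternatives kept the direction. Most of the gene ends were starts. Away from chromosome 8, for which no start was given, a start lay within 1 kb of 17.3% of ARID1A-only regions, 46.8% and 48.7% of ARID1A and PBRM1 regions of both, and 24.98% of PBRM1-only regions. A 3′ end with no start within 1 kb made up between 2.32% and 3.38% of each class.

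Away from gene ends, regions of every class lay more often inside genes than outside them. The shares that follow are of all regions of a class, including those at gene ends. PBRM1-only regions lay inside a gene and over 1 kb from an end in 56.4%, and outside genes in 16.1%. For ARID1A-only regions these shares were 51.6% and 26.0%, and for ARID1A regions of both 37.5% and 11.9%, beside 50.6% at gene ends. In counts, 2573 ARID1A regions of both lay inside a gene away from its ends and 814 outside genes. The counts were 21733 and 10929 for ARID1A only, and 1942 and 555 for PBRM1 only. Whether such a region was exonic or intronic was not analysed here. The median distance to a gene end was 6204 bp for ARID1A-only regions, 4266 bp for PBRM1-only regions, and 964.5 and 859.5 bp for the ARID1A and PBRM1 regions of both. Over 25 kb from a gene end lay 19.8% of ARID1A-only, 18.3% of PBRM1-only and 9.81% of ARID1A regions of both. At equal list length the median distances were 3087.5 bp for ARID1A only, 2370 bp for PBRM1 only, and 800 and 878.5 bp for both.

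**Figure D3:**
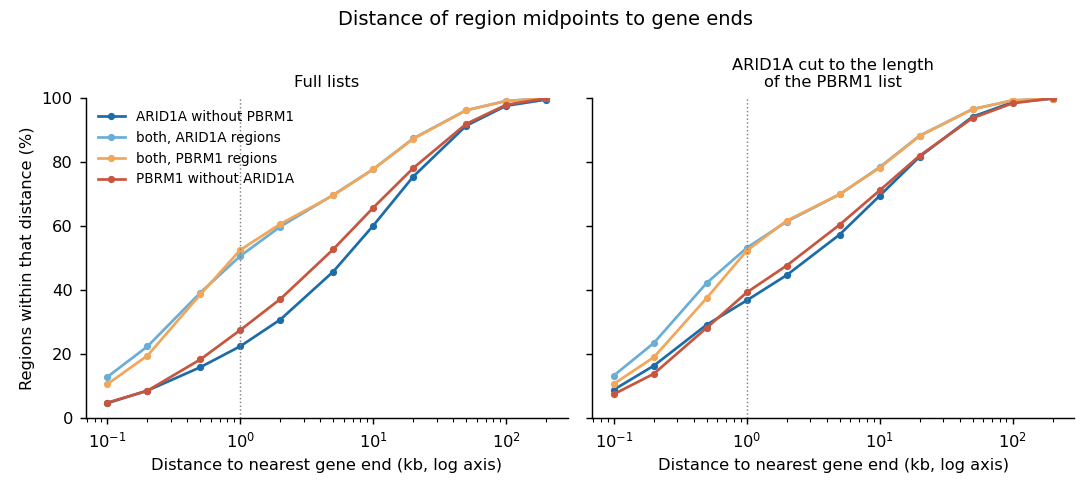
Cumulative share of regions (%) with a midpoint within a given distance (kb, log axis) of the nearest gene end, with full lists (left) and ARID1A cut to the PBRM1 list length (right); each line is a class and the dotted line marks 1 kb. At 1 kb the 2 lines of both stand at 50.6% and 52.5% on the left, against 22.4% and 27.5% for the single classes.

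BRG1, the ATPase of both assemblies, was listed at nearly all regions of both when an overlap of 1 bp was enough. The BRG1 vehicle list overlapped 93.2% of ARID1A regions of both and 93.9% of PBRM1 regions of both. It overlapped 52.3% of ARID1A-only regions and 60.6% of PBRM1-only regions. Both exceeded ARID1A only by 3.64 in log2 odds (SE 0.07) and PBRM1 only by 3.32 (SE 0.09). Each had an adjusted p = 1.5e-300 in the same exact test, the smallest that is written. The shares depended on the overlap rule. With 50% reciprocal overlap, BRG1 met 63.8% and 69.7% of ARID1A and PBRM1 regions of both. It then met 23.1% of ARID1A-only and 44.6% of PBRM1-only regions. With 500-bp regions these 4 shares were 73.0%, 73.6%, 40.1% and 48.0%. Where only the strongest ARID1A regions were kept, 87.8% of ARID1A-only and 74.3% of PBRM1-only regions overlapped BRG1. The difference of PBRM1 only from ARID1A only was 0.49 (SE 0.05; adjusted p = 2.18e-21, exact test) with full lists and turned to -1.32 (SE 0.07; adjusted p = 1.81e-86, exact test) with the ARID1A list cut. It was also negative when the list was cut by the first library (-0.40) or the second (-0.71), and within quintiles of width (-0.12). In 8 of 13 alternatives it stayed positive, among them 1.65 at an IDR of at most 0.01 (73.0% and 89.5%) and 1.42 with 50% reciprocal overlap. The cut makes lengths equal, not stringency. An IDR of at most 0.01 held for 99.4% of the ARID1A regions kept and 23.3% of PBRM1 regions.

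TRβ was listed least at PBRM1-only regions. The TRβ vehicle list, of 1405 regions, met 0.668% of PBRM1-only regions (23 of 3445; interval 0.424 to 1.0), 1.596% of ARID1A-only regions, and 3.85% and 4.16% of ARID1A and PBRM1 regions of both. In the TRβ list with T3, of 7186 regions, the shares were 3.86%, 7.87%, 23.3% and 25.1%. The log2 odds ratio of PBRM1 only over ARID1A only was -1.24 (SE 0.30) for the vehicle and -1.08 (SE 0.13) for the T3 list, given without a test. With the ARID1A list cut the PBRM1-only shares were again the lowest and the ratios were -1.999 (SE 0.18) and -1.78 (SE 0.08). The shares then were 8.86% of PBRM1-only and 25.1% of ARID1A-only regions for the T3 list.

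With T3, some single-protein regions were listed for the other protein. The PBRM1 list with T3 held 34.1% of the ARID1A-only regions, and the ARID1A list with T3 held 33.8% of the PBRM1-only regions. These shares were, with vehicle lists of equal length, 67.6% and 53.6%. The second is of 6433 regions then called PBRM1 only, against 3445 with full lists. Those added by the cut overlapped ARID1A vehicle regions of lower rank, so 53.6% is not a share gained with T3. Regions of both were in both T3 lists in 74.6% (ARID1A regions) and 77.2% (PBRM1 regions). In 48.3% of ARID1A-only and 36.6% of PBRM1-only regions, neither protein was listed with T3. PBRM1 alone was listed with T3 at 29.6% of PBRM1-only regions, and ARID1A alone at 17.6% of ARID1A-only regions. The PBRM1 list with T3 was longer than the vehicle list, so these shares depend on both lengths.

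**Figure D4:**
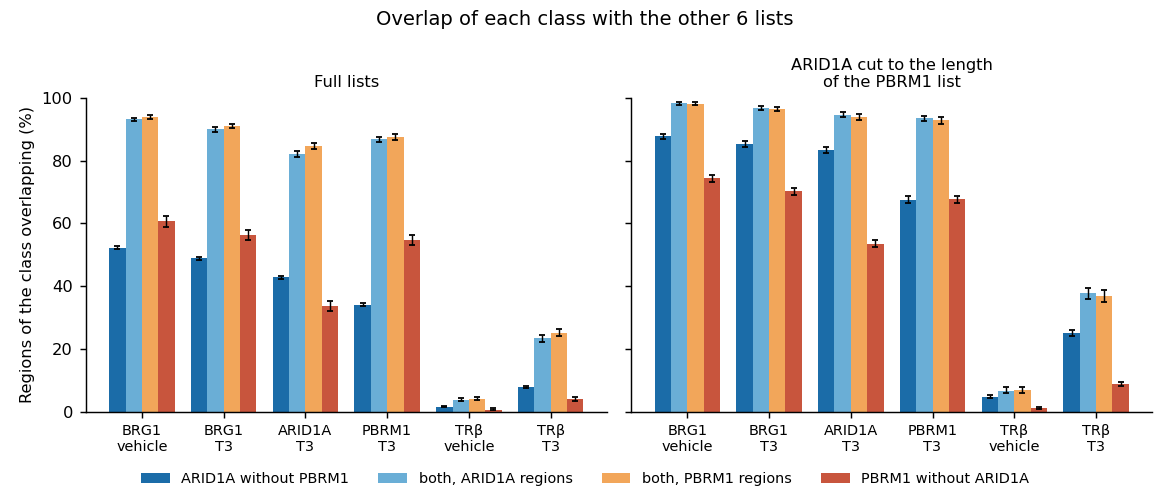
Share of regions (%) of each class that overlap the BRG1, ARID1A, PBRM1 and TRβ lists of either treatment, with full lists (left) and ARID1A cut to the PBRM1 list length (right); bars are shares and black lines exact 95% intervals. PBRM1-only regions have the lowest TRβ shares in both panels, while their BRG1 vehicle share is above that of ARID1A-only regions on the left (60.6% and 52.3%) and below it on the right (74.3% and 87.8%).

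The 8 highest-ranked regions of both lay in or near CXXC5, ALLC, KRT80, ADGRG1, CREBBP, AVPI1 and SEPTIN9. The first by summed rank was a CXXC5 region (ARID1A chr5:139656813-139662293, PBRM1 chr5:139653636-139664224) of 5481 and 10589 bp. Its ARID1A values were 29.3 and 50.6 in the first and second library, and its PBRM1 values 25.2 and 59.4. Next to KRT80, a keratin of epithelia, 2 regions of both lay 22204 and 636 bp from the gene end by their ARID1A midpoints. The ARID1A signal values there were 58.4 and 51.1 and the PBRM1 values 82.6 and 54.2. The ADGRG1 region had values of 70.3 for ARID1A and 48.9 for PBRM1, and the SEPTIN9 region of both (chr17:77422123-77428373 in the ARID1A list) had 49.7 and 53.0. The remaining 3 of the 8 were narrow, inside ALLC (355 bp in the ARID1A list), CREBBP (115 bp) and AVPI1 (121 bp), and the ALLC one was present in all 8 lists. Presence in all 8 lists was found for 154 ARID1A regions (0.31% of the list) and 138 PBRM1 regions (1.51%). Among regions of both these were 2.24% and 2.43%.

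The 8 highest-ranked ARID1A-only regions lay in or near PLEC, EDN2, SH2B3, DOP1B, PXN, MKNK2 and DONSON. PLEC, which encodes the cytolinker plectin, held the first and the fourth, on chromosome 8 (143947781 to 143955212, and 143937170 to 143944505), with signal values of 82.1 and 55.9. The 2 libraries gave 40.6 and 41.5 at the first and 11.97 and 43.9 at the fourth, where most of the summed value came from the second library. A region inside PXN, which encodes the focal adhesion adaptor paxillin, had 9.44 and 45.1. Regions near EDN2 (endothelin 2; 23.4 and 40.7) and MKNK2 (a kinase of a translation initiation factor; 31.4 and 22.9) and inside SH2B3 (21.7 and 34.8) and DOP1B (17.4 and 38.4) followed. The eighth, of 102 bp at DONSON, had 37.6 and 14.5. All 8 overlapped BRG1 vehicle regions, as did 93.9% of ARID1A-only regions in the highest decile of signal values. All 8 were listed for PBRM1 with T3, beside 67.6% of ARID1A-only regions of the cut list.

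The 8 highest-ranked PBRM1-only regions lay in PDGFB, GAS6, RBMS1, AUTS2, RBMS3, B3GNT7, KCNIP1 and TRAM2. PDGFB, which encodes a platelet-derived growth factor chain, held the first (chr22:39241440-39245597), with PBRM1 values of 16.96 and 39.0. GAS6 had 21.9 and 24.2, AUTS2 21.2 and 23.6, and TRAM2 18.4 and 20.4, so the libraries were close there. RBMS1 (15.1 and 31.0) and RBMS3 (14.6 and 25.6) encode related single-stranded nucleic acid-binding proteins. B3GNT7, a glycosyltransferase gene, had 13.4 and 26.3 and KCNIP1, a potassium channel-interacting protein gene, 13.1 and 26.0. These regions ranked from 19 to 151 in the PBRM1 list. All 8 overlapped BRG1 vehicle regions, as did 97.1% of PBRM1-only regions in the highest decile of signal values. Of the 8, 5 were listed for ARID1A with T3, beside 33.8% of all PBRM1-only regions.

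Some genes held many regions of 1 class, here chosen after the counts were seen and without allowance for gene length. MYH9, which encodes a nonmuscle myosin, held 19 ARID1A regions of both, and ZMIZ1 held 18. GSE1 held the most ARID1A-only regions, 67 in a span of 507 kb. TRIO, a guanine exchange factor gene, held the most PBRM1-only regions, 15, followed by GLI2 (12), CRIM1 (10), and TEAD1 and ZMIZ1 (9 each). In all, 306 of the 3141 genes with an ARID1A region of both in their span held 3 or more. For ARID1A-only regions, the largest class, it was 2808 of 9447 genes, and for PBRM1-only regions 119 of 1865.

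Of 19974 protein-coding genes, 3238 (16.2%) had a region of both within 1 kb of an end, 6601 (33.0%) had ARID1A-only regions alone and 703 (3.52%) PBRM1-only regions alone. Separate regions of each protein were at 124 genes, and 9308 had none. With the ARID1A list cut, the shares were 7.81% (1560 genes), 11.0% (2193) and 11.7% (2340). These shares are the background for the gene lists that follow, which are described by counts and had no test. The lists hold few genes and were chosen with earlier results known.

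Of 29 genes of the SWI/SNF subunits themselves, 6 had both, 18 ARID1A only, 0 PBRM1 only and 5 none. ARID1A only was 62.1%, against 33.0% of all genes, and the 0 with PBRM1 only stand beside 3.52% of all genes. The genes for BRG1 (SMARCA4; ARID1A values 4.48 and 4.46 in the 2 libraries), ARID1A (4.28 and 5.96 at its highest region), ARID2 (4.36 and 7.18) and PBRM1 (4.54 and 11.8) were all ARID1A only. The PBRM1 gene region lay on chromosome 3, 52685385 to 52686523, and was listed for PBRM1 with T3, as were those at SMARCA4, ARID1A and ARID2. At equal list length the PBRM1 gene was still ARID1A only, while SMARCA4, ARID1A and ARID2 had no region. ARID1B and the PBAF bromodomain gene BRD7 had none with full lists either. Both proteins were listed, with full lists, at SS18L1 (ARID1A 15.9 and 9.02, PBRM1 9.66 and 17.5), BCL7A, BCL7C, SMARCA2, SMARCC2 and SMARCD1. At equal list length 2 had both, 4 ARID1A only, 4 PBRM1 only and 19 none, so as many subunit genes then carried PBRM1 as ARID1A.

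Of 15 thyroid lineage and hormone synthesis genes, 4 had both (PAX8, FOXE1, HHEX and DUOX2), GLIS3 had ARID1A only and 10 had none. That is 26.7% with both, against 16.2% of all genes, and 66.7% with none, against 46.6%. At equal list length FOXE1 alone had both, PAX8 had PBRM1 only, HHEX had regions of each apart and 12 had none. The regions at FOXE1, a forkhead factor of thyroid development, were 1229 bp for ARID1A (10.2 and 8.16) and 4784 bp for PBRM1 (14.3 and 23.3). At the PAX8 end at chromosome 2, 113276682 to 113279285, PBRM1 had 14.7 and 16.2 and ARID1A 6.87 and 5.25, and a TRβ region of the T3 list overlapped. Values of different antibodies are not on 1 scale, so the 2 proteins are not compared by them. No region of either protein lay within 1 kb of an end of TG (thyroglobulin), TSHR (the thyrotropin receptor), SLC5A5 (the iodide symporter) or NKX2-1, which are markers of a thyroid follicular cell. These lists give the place of chromatin proteins, not RNA levels. Of 15 blood and 14 neuronal marker genes, 0 had both or PBRM1 only, against 16.2% and 3.52% of all genes. ARID1A only was at 4 and 5 of them (26.7% and 35.7%), near the 33.0% of all genes. At equal list length no marker gene of these 2 lists had a region, against 69.2% of all genes without one.

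Among 18 genes of thyroid hormone signalling, 4 had both, 6 ARID1A only, 0 PBRM1 only and 8 none. THRB, the gene of TRβ, had both, with ARID1A 8.33 and 5.45 and PBRM1 8.97 and 14.1 (chromosome 3, 24493607 to 24496217 for PBRM1). NCOA3, a coactivator gene, had ARID1A 5.66 and 4.38 and PBRM1 12.99 and 21.0. NCOR1, a nuclear receptor corepressor gene, was ARID1A only (8.90 and 6.47). KLF9, a well-known hormone-responsive gene, had an ARID1A region of both (9.16 summed), while the midpoint of its PBRM1 partner lay beyond 1 kb. DIO3, the deiodinase that inactivates hormone, had ARID1A only (5.17 and 8.50), and THRA and DIO2 had none.

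In 5 lists of growth, metabolism and signalling genes the share with both was at least 34.8%, above the 16.2% of all genes. Glycolysis and hypoxia had 9 of 20 genes with both, receptor kinase and RAS pathway 11 of 26, lipid and cholesterol synthesis 8 of 19, TGF-beta and matrix 10 of 24, and cell cycle 8 of 23. Examples are SLC2A1, the glucose transporter gene (ARID1A 17.6 and 9.09, PBRM1 7.02 and 10.9), and MET, a receptor kinase gene (ARID1A 8.12 and 13.9, PBRM1 12.6 and 15.8). E2F1, a cell cycle factor gene, had ARID1A 8.20 and 18.1 and PBRM1 13.9 and 16.4. TGFBR2, a TGF-beta receptor gene, had ARID1A 9.83 and 12.4 and PBRM1 6.53 and 6.36. At equal list length 7 of 20 genes of glycolysis and hypoxia, 6 of 26 of the receptor kinase list and 4 of 24 of TGF-beta and matrix had both, against 7.81% of all genes.

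The epithelial list had 5 of 21 genes with both, among them JUP (plakoglobin; ARID1A 16.5 and 26.1, PBRM1 12.7 and 22.1) and KRT8 with its neighbour KRT18, which share a PBRM1 region (9.34 and 14.7). CDH1, the E-cadherin gene, was PBRM1 only (8.66 and 7.55). In the epithelial list the share with both was 23.8%, against 16.2% of all genes, and with ARID1A only 33.3%, against 33.0%. Among 19 interferon and JAK-STAT genes 5 had both (26.3%), 7 ARID1A only (36.8%), 1 PBRM1 only (5.26%, against 3.52% of all genes) and 6 none. At equal list length 3 of these 19 had both, 3 ARID1A only, 3 PBRM1 only and 10 none. The shares of all genes at that length were 7.81%, 11.0%, 11.7% and 69.2%. In the YAP and TEAD list 4 of 17 had both (23.5%), YAP1 among them, and 7 had ARID1A only (41.2%). At equal list length 1 had both, 2 ARID1A only and 5 PBRM1 only. YAP1 was then PBRM1 only, because its ARID1A region (12.2 summed) fell below the cut. In the epithelial list 3 then had both, 3 ARID1A only and 2 PBRM1 only. At TEAD4 and AMOTL2, with full lists, ARID1A and PBRM1 regions lay apart within 1 kb of the gene ends.

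Of 18 AP-1 and related genes, 9 had ARID1A only, against 33.0% of all genes, among them JUN, JUND, FOSL1 and FOSL2, 2 had both (JUNB and ATF4), 1 had PBRM1 only (BATF3; 13.9 and 13.4), 1 had regions apart and 5 had none. At equal list length 1 had both, 4 had ARID1A only and 3 PBRM1 only, against 7.81%, 11.0% and 11.7% of all genes.

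Counts of PBRM1-only genes with full lists were at most 3 in every gene list. Of 31 cytosolic ribosomal protein genes 3 were PBRM1 only (RPL10A, RPL27 and RPS6), which is 9.68% against 3.52% of all genes, 7 had both and 10 ARID1A only. RPL27 had PBRM1 values of 7.86 and 10.3. Of 21 respiratory chain genes 2 were PBRM1 only (NDUFB3 and COX4I1) and of 20 proteasome genes 0. Of 28 HOX genes, which pattern the body axis, HOXC8 (7.83 and 7.94) and HOXC10 (8.19 and 12.04) were PBRM1 only, 2 had both, 4 ARID1A only and 20 none. With the ARID1A list cut, 4 HOX genes were PBRM1 only, all others had none, and 7 ribosomal protein genes were PBRM1 only, against 11.7% of all genes. The PBRM1-only share was then 22.6% for ribosomal proteins, 14.3% for HOX genes and 9.52% for the respiratory chain. It was highest in the YAP and TEAD list (29.4%, 5 of 17), and 20.8% in TGF-beta and matrix, 17.4% in cell cycle and 16.7% in AP-1 genes, so the order of the lists changed with list length.

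**Figure D5:**
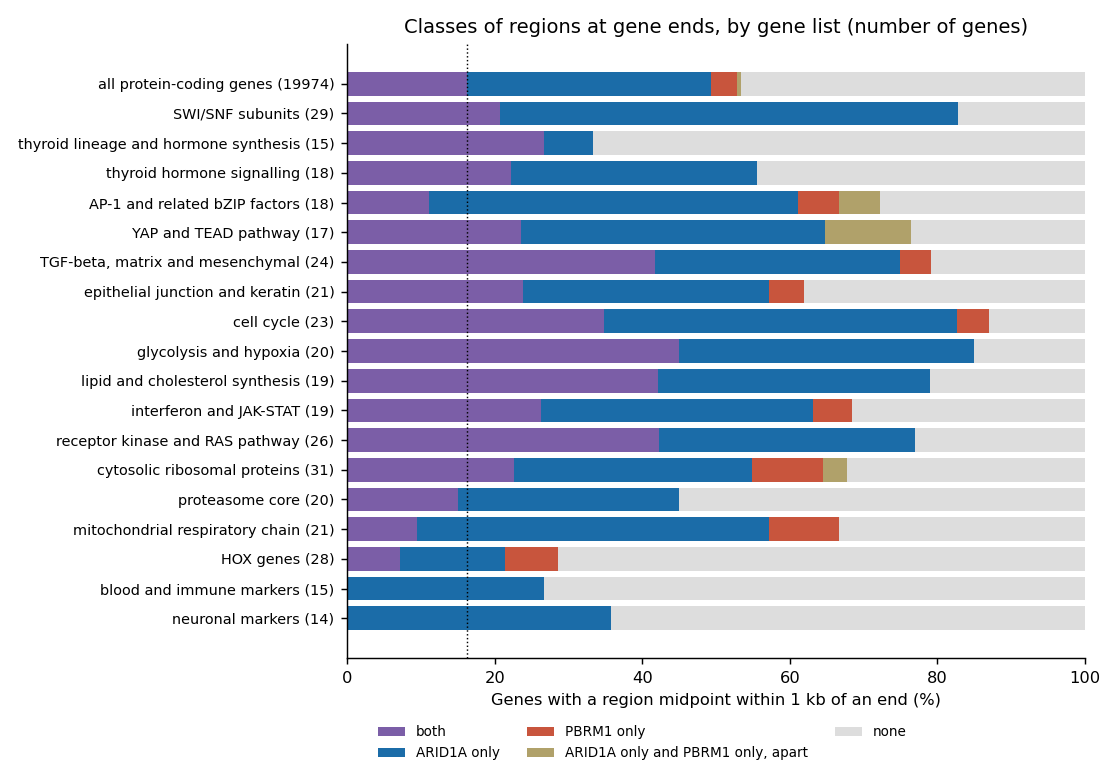
Share of genes (%) with regions of each class within 1 kb of an end, in all protein-coding genes and in 18 gene lists (number of genes in parentheses); the dotted line is the 16.2% of all genes with both. Glycolysis and hypoxia has the longest segment of both (45.0%), and blood and neuronal markers have none.

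Promoters of all 3 classes were rich in G and C and in CpG. Of 34961 RefSeq promoter windows, 4444 (12.7%) overlapped a region of both, 7689 (21.99%) an ARID1A-only region and 980 (2.80%) a PBRM1-only region. Their median G and C content was 68%, 67% and 65%, against 51% in the 21842 windows with neither protein. An observed over expected CpG ratio above 0.6 was found in 87.6%, 82.7% and 79.5% of them and in 27.8% of those with neither.

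Of the 8 motifs, GGGCGG stood furthest apart, in percentage points, between windows with and without a region. It was in 75.9% of windows of both, 74.0% of ARID1A-only and 63.4% of PBRM1-only windows, against 27.7% of windows with neither and 45.0% of all. CCGGAAG was in 15.3%, 17.5% and 14.5%, against 10.3% of all. TGANTCA was in 4.30%, 5.71% and 3.27%, against 7.68% of all, and CCAAT in 31.9%, 34.9% and 27.2%, against 34.6%. CACGTG was in 9.41%, 10.1% and 7.14% (7.27% of all) and TGACGTCA in 2.72%, 3.34% and 2.76% (1.85%). TATAAA was in 3.98%, 4.12% and 5.92%, against 11.5%, and AGGTCA in 8.19%, 10.2% and 9.90%, against 13.8%. CCAAT was in 35.3% of windows with neither protein, close to its share in ARID1A-only windows, and CACGTG in 5.85%. With full lists the share was lower in PBRM1-only than in ARID1A-only windows for 7 of the 8 motifs, all but TATAAA. At equal list length CCGGAAG turned as well, with 16.6% and 15.4%, and no test was made. G and C content moved with the classes, and its part in these shares was not tested. Letters in a window are not a bound site.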

How the data were processed

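CUT&RUN libraries of ARID1A and PBRM1 from vehicle-treated Nthy-ORI cells were used, 2 per protein, with the 6 other region lists of the series for reference. The authors deposited 1 list of reproducible regions per pair of libraries, in the layout of an irreproducible discovery rate (IDR) comparison. Per the file values, the deposited signal of a region is the sum of its values in the 2 libraries, and the deposited −log10 IDR is at or above the level of 0.05. Per the submitters' processing notes, CASAVA 1.7, Trim Galore, Bowtie2, MACS2 and hg38 were used. Parameters were not given in the sources used here, nor was read depth, so no error from depth can be stated. A further 52 columns of values per library were not used. Which column belongs to which numbered library is not stated.

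Regions on chromosomes 1 to 22 and X were kept, which left out 291 of 49267 ARID1A and 9 of 9124 PBRM1 regions. Overlap of at least 1 bp set the classes. Shares have exact (Clopper-Pearson) 95% intervals. Comparisons of classes used Fisher's exact test, two-sided, with regions as units, Benjamini-Hochberg adjustment over 3 class pairs, and 0.5 added to each cell of the odds ratio. Strata used the Mantel-Haenszel method, and p-values below 1e-300 are written as 1e-300 before adjustment. Genes (19974 protein-coding and 18177 long noncoding) and 34961 promoter windows came from RefSeq on GRCh38.p14, and all 27195 genes of the promoter table matched by gene ID. For chromosome 8 no promoter window was used. Of the listed genes 1 (NDUFA4) was unmatched. Named regions are the 8 of highest rank per class, and named genes are core SWI/SNF, thyroid and hormone receptor genes plus up to 3 genes per list and class, by signal. Other genes named were chosen after their values were seen. The members and lists were chosen with earlier results of these data known. The steps were tested on simulated data and run in Python 3.11.15 with numpy 2.4.6, pandas 2.3.3, scipy 1.17.1 and statsmodels 0.14.6. Alternatives changed the list length, IDR limit, overlap rule, region width, gene-end window, strata and library. A few genes are not reported here.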

Additional observations from a re-analysis of the deposited data

How the results depend on the processing

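The excess of both over either single class kept its direction and stayed past the threshold in all alternatives run, 16 for gene ends and 14 for BRG1. The log2 odds ratios ran from 0.95 to 2.07 (gene ends, against ARID1A only), 0.35 to 1.58 (gene ends, against PBRM1 only), 2.01 to 3.90 (BRG1, against ARID1A only) and 1.52 to 4.20 (BRG1, against PBRM1 only). PBRM1 only against ARID1A only reversed within width quintiles at gene ends (-0.033), and its 15 alternatives ran up to 0.94, at an IDR of at most 0.01. For BRG1 it reversed with the ARID1A list cut (-1.32), within width quintiles (-0.12), with both together (-1.29), and cut by the first (-0.40) or second library (-0.71). Its 13 alternatives ran from -1.32 to 1.65, the last at an IDR of at most 0.01, and 8 of them kept the direction. The cut by single libraries, the signal strata and the cut with width strata were chosen after seeing the data. The cause of the reversals was not tested.

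ARID1A-only shares were 70.3% with the list cut, 92.4% at an IDR of at most 0.01, 93.9% with 50% reciprocal overlap, 83.4% with a gap of up to 500 bp, 90.6% with 500-bp regions, and 73.6% and 72.0% cut by single libraries. PBRM1-only shares were 70.6%, 31.3%, 67.1%, 32.4%, 50.9%, 74.0% and 72.4% in the same order. With the intervals of 1 library at a time they were 86.2% to 86.4% and 38.4% to 38.8%. The ratio of median widths for ARID1A was 1.15 with the list cut, 1.28 at an IDR of at most 0.01, 1.78 with reciprocal overlap, 1.302 with the gap and 1.35 without regions in all 8 lists, and 1.43 with either library. For PBRM1 it was 1.44, 1.19, 1.16 and 1.40 under the first 4, and 1.49 to 1.53 by library. Genes with both at an end numbered 1560 with the list cut, 969 at an IDR of at most 0.01, 1757 with reciprocal overlap and 6527 within 25 kb, and 3201 to 3215 by library.

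No paired analysis was possible because the 2 libraries of each protein were deposited as 1 joint list, and library columns carry no replicate number. With 1 list per protein, no difference between proteins has a test across replicates.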

Other observations

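The ALLC region, the highest in the ARID1A list by summed signal, was 355 bp wide and had values of 73.9 and 22.4 in the 2 ARID1A libraries and 34.3 and 43.6 in the PBRM1 libraries. The CREBBP region had the same bounds in both lists (chr16:3849379-3849493), with ARID1A values of 41.2 and 13.1 and PBRM1 values of 20.6 and 30.9. At AVPI1 the ARID1A values were 35.7 and 14.1 and the PBRM1 values 21.96 and 32.0. In these 3 narrow regions the first ARID1A library was the higher. Among the 5 wider regions of both named by rank, the second was higher at CXXC5, ADGRG1, SEPTIN9 and 1 KRT80 region (26.1 and 32.2), and the first at the other KRT80 region (28.2 and 22.9). The first was also higher at the wide ARID1A-only region near MKNK2 (31.4 and 22.9). This was noticed after the values were seen and was not tested.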
